A study of Mus musculus with 4 samples.

Results

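Dual-specificity phosphatases (Dusp genes), Sprouty proteins (Spry genes) and the Sprouty-related protein Spred1 are brakes on mitogen-activated protein kinase (MAP kinase) signalling, and 10 of these genes were described here. They were Dusp1, Dusp2, Dusp4, Dusp5, Dusp6, Dusp7, Dusp10, Spry1, Spry2 and Spred1, taken by gene symbol from that family, and all 10 were found among the 50600 genes of each count table. The 4 libraries came from primary mouse cells of strain C57BL/6NJ that the labels call regulatory T cell. They are numbered as replicates 1 to 4, with separate biosamples but 1 donor record in common. Age and sex are not given, and p-values measure only the spread between these libraries, which may be technical. They cite a protocol for differentiating CD4 T cells, and column names in the files carry the text activated with a mark of 0 h. The labels call the assay total RNA-seq, while the library protocol they cite is named for poly(A) RNA. There was no second group, so members were compared with each other within a library, and their spread between libraries was set against that of all genes.

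A T cell receptor signal reaches the kinase ERK through the adaptor Lat, small GTPases of the Ras family and a kinase cascade, and a parallel route reaches the stress kinases JNK and p38. Dual-specificity phosphatases switch these kinases off by removing phosphate from both the threonine and the tyrosine of their activation loop. Sprouty and Spred proteins act earlier, on the step from the receptor to Ras. Many of these brakes are themselves induced by the pathway they restrain, so that a signal limits its own length.

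The depth was 23000465 to 62090744 counts per library. The label was checked against marker genes first. The T cell markers Cd4 and Cd3e lay at 1027 to 1104 TPM and 457 to 502 TPM (a level corrected for exon length, with the same total in every library). Foxp3, the factor that defines regulatory T cells, lay at 7.39 to 9.46 TPM. Of 8 regulatory T cell markers, 7 reached 1 TPM in all libraries. The homing receptor Ccr7, a gene of naive and central memory T cells, lay at 1040.3 to 1125 TPM. The summed level of 7 B cell markers was 11.1 to 37.4 TPM, highest in replicate 1 and lowest in replicate 4, and 5 of the 6 tested varied between libraries by the deviance test used for the members. Sums were 14.6 to 16.8 TPM for 7 macrophage markers, 0.658 to 1.20 TPM for 7 dendritic cell markers, 7.99 to 13.3 TPM for 5 natural killer cell markers and 1.29 to 2.78 TPM for 6 granulocyte markers. Mpo, Elane and Ltf of the granulocyte list had no count in any library. Cd8b1 (36.2 to 41.6 TPM) lay far above Cd8a (0.476 to 1.11 TPM).

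The 250 bases before the transcription start were read for the members to show which inducible elements they carry, since 4 members are early-response phosphatases. RefSeq (build GRCm38.p6, the same assembly as mm10) had such a sequence for 9 of the 10 members, all but Dusp4. Both strands of each 250-base window were searched for 6 motifs, chosen after the sequences had been seen. These were the cyclic AMP response element TGACGTCA, the E box CACGTG, the serum response element core known as the CArG box, the AP-1 site TGANTCA, the Ets site CCGGAAG and the Egr site GCGNGGGCG. Of the 9 windows, those of Dusp1, Dusp2 and Dusp5 held a match, and these are printed 5′ to 3′ on the gene's strand, stopping at the first annotated exon base, with matches in capitals.
Dusp1, chr17:26508520-26508722, minus strand: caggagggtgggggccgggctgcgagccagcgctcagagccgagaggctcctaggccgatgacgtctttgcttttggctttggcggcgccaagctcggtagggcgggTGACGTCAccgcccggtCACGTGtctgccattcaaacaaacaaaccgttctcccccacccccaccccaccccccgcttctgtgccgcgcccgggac
Dusp2, chr2:127335909-127336158, plus strand: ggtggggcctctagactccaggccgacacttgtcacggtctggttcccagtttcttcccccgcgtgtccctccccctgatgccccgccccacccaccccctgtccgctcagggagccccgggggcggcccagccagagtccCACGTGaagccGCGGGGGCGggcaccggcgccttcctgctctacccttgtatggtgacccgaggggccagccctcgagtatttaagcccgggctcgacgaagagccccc
Dusp5, chr19:53528895-53529108, plus strand: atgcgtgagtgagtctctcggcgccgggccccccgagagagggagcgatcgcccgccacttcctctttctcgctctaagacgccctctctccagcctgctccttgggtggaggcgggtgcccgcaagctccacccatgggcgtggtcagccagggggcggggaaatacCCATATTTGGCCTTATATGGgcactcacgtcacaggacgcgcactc

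The Dusp1 sequence holds 1 cyclic AMP response element, 143 to 136 bases before the RefSeq start, and 1 E box, 126 to 121 bases before it. The first motif occurs in 1.55% and the second in 6.02% of all 32851 RefSeq promoter windows of that length. The Dusp2 sequence holds 1 E box at 109 to 104 bases and 1 Egr site at 98 to 90 bases before the start, the latter a motif of 4.70% of windows. In Dusp5, 2 CArG boxes lie side by side, CCATATTTGG and CCTTATATGG, from 82 to 63 bases before the start. At least 1 CArG box occurs in 1.47% of windows, and 2 or more occur in 6 windows. Besides Dusp5, the named gene among those 6 with counts here is Srf, which codes for the factor that binds CArG boxes and lay at 157 ± 11.2 TPM (SD, n = 4). The AP-1 and Ets motifs, present in 6.75% and 6.91% of windows, had no match in the 9 member windows. The Dusp10 window was searched whole, although it lies inside the span that the files' annotation gives that gene. A match in letters describes the sequence and is not a measurement of binding.

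Mean levels of the members ran from 0.234 TPM for Spry2 to 388 TPM for Dusp2, and Dusp2 alone held most of the total. Dusp2, known as PAC-1, is a nuclear phosphatase of lymphocytes that acts on ERK. Replicates 1 to 4 had 375, 405, 408 and 365 TPM of Dusp2. Its mean of 388 ± 21.3 TPM (SD, n = 4) put it at rank 323 among protein-coding genes. It supplied 56.2% ± 1.18 of the summed TPM of the 10 members, and it was the highest member in each of the 4 libraries. Dusp2 exceeded the next member, Dusp7, by 3.48-fold (log2 ratio 1.80 ± 0.10), and the 4 libraries did not overlap between these genes.

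**Figure D1:**
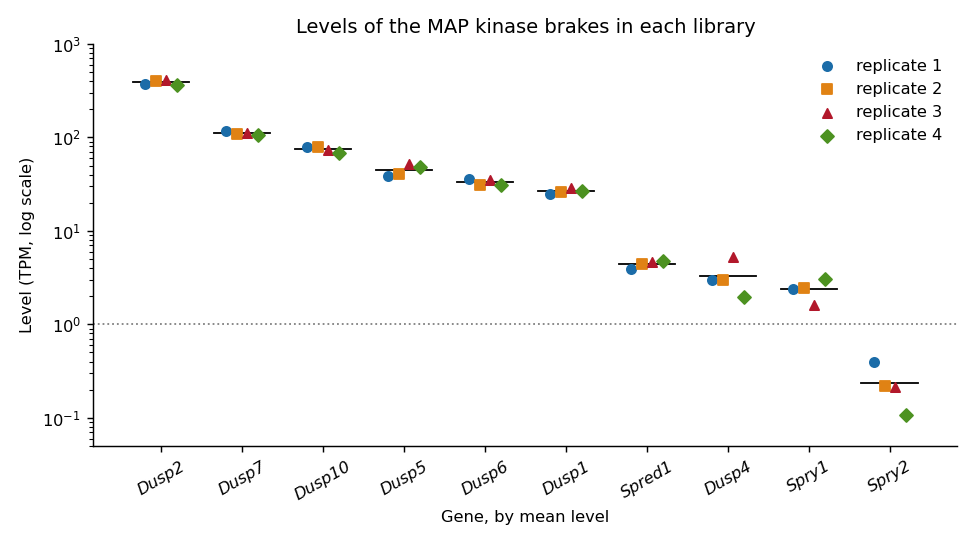
Level of each member (TPM, log axis) in each of the 4 libraries, with a black bar for the mean and a dotted line at 1 TPM; genes are ordered by mean. Dusp2 stands above all others at 365 to 408 TPM, 5 phosphatases lie between 25.1 and 118 TPM, and Spry2 is the single member below 1 TPM in every library.

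The other nuclear phosphatases lay well below Dusp2. Dusp5, which is specific for ERK, lay at 38.6, 40.8, 51.4 and 48.6 TPM in replicates 1 to 4, with a mean of 44.8 ± 6.14 TPM. Replicates 3 and 4 were the higher pair. Dusp1, known as MKP-1 and able to act on p38, JNK and ERK, lay at 25.1, 25.8, 28.9 and 27.0 TPM, with a mean of 26.7 ± 1.65 TPM. Replicates 3 and 4 were again above replicates 1 and 2. Dusp4, known as MKP-2 and related to Dusp1, lay at 3.01, 3.00, 5.30 and 1.96 TPM, with a mean of 3.32 ± 1.41 TPM on 60 to 144 counts. Replicate 3 was highest and replicate 4 lowest.

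Within this class the ratios between genes were large. Dusp2 exceeded Dusp1 by 14.5-fold (log2 ratio of Dusp1 to Dusp2 -3.86 ± 0.09, SD, n = 4), and Dusp5 exceeded Dusp4 by 13.9-fold (log2 ratio of Dusp4 to Dusp5 -3.79 ± 0.55). Each ratio kept its sign in all 4 libraries. By an exact sign-flip test, two-sided, p was 0.13 for both, before and after Benjamini-Hochberg adjustment across the 7 pairs compared. No smaller p can come from 4 libraries, so none of the 7 pairs could reach 0.05.

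The cytoplasmic phosphatases Dusp6 and Dusp7, which are specific for ERK, were both well detected. Dusp7 lay at 118, 109, 112 and 107 TPM in replicates 1 to 4 (mean 111 ± 4.64 TPM), and no member had a smaller relative spread (4.16% of its mean). Dusp6, known as MKP-3 and a widely used reporter of ERK activity, lay at 36.0, 31.0, 35.1 and 31.2 TPM (mean 33.3 ± 2.62 TPM). Dusp7 was the higher gene in 4 of 4 libraries, by 3.34-fold (log2 ratio of Dusp6 to Dusp7 -1.74 ± 0.06, exact p 0.13). Dusp6 lay below the nuclear ERK phosphatase Dusp5 in 4 of 4 libraries as well (log2 ratio of Dusp5 to Dusp6 0.42 ± 0.24, exact p 0.13). On CPM, which leaves out gene length, the log2 ratio was 0.08, with Dusp5 higher in 3 of 4 libraries (exact p 0.5). Per length, the gap was narrow in replicate 1, at a log2 ratio of 0.10, and wider in the others, at 0.40 to 0.64.

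Among phosphatases of the stress kinases, Dusp10 (MKP-5), which acts on JNK and p38, was the third member by level. It lay at 79.7, 79.7, 74.0 and 67.5 TPM in replicates 1 to 4, with a mean of 75.2 ± 5.78 TPM. Replicate 4 was lowest. Its relative Dusp16 (MKP-7), which is no member, lay at 1.06 to 1.54 TPM, and Dusp10 exceeded it by 51.7-fold with 0.1 TPM added to both (log2 ratio 5.69 ± 0.28, 4 of 4 libraries, exact p 0.13). The ratio was 32.2-fold with 1 TPM added, and its log2 value was 4.39 on CPM, which leaves out gene length. Dusp8, the other gene of that class, had at most 1 count in any library.

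The 3 Sprouty and Spred members lay among the 4 lowest members, together with the phosphatase Dusp4. Spred1, which brings the Ras inhibitor neurofibromin to the membrane, lay at 3.88, 4.42, 4.64 and 4.71 TPM (mean 4.41 ± 0.376 TPM). Spry1 lay at 2.42, 2.43, 1.60 and 3.03 TPM (mean 2.37 ± 0.590 TPM) on 31 to 158 counts, with replicate 4 highest and replicate 3 lowest. Spry2 lay at 0.396, 0.219, 0.216 and 0.107 TPM (mean 0.234 ± 0.120 TPM). It rested on 6, 8, 3 and 4 counts, so the exact 95% Poisson intervals overlapped, from 0.145 to 0.862 TPM in replicate 1 and from 0.0292 to 0.274 TPM in replicate 4. These intervals cover counting error only. The summed B cell markers had the same highest and lowest libraries as Spry2 (37.4 TPM in replicate 1, 11.1 TPM in replicate 4). Their part in the Spry2 level was not tested.

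Spry1 exceeded Spry2 by 7.57-fold with 0.1 TPM added to both (log2 ratio 2.92 ± 0.73, 4 of 4 libraries, exact p 0.13). With Spry2 this low the size depends on that addition, and it was 2.71-fold with 1 TPM added and 10.9-fold with none. Spred2, the close relative of Spred1, lay at 32.6 to 35.7 TPM, and Spred1 was lower in 4 of 4 libraries (log2 ratio of Spred1 to Spred2 -2.93 ± 0.07, exact p 0.13). Spred2 was thus 7.64-fold higher. The remaining relatives Spred3 (0.297 ± 0.166 TPM) and Spry4 (0.136 ± 0.0719 TPM) stayed below 1 TPM in each library.

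By mean level the order was Dusp2, Dusp7, Dusp10, Dusp5, Dusp6, Dusp1, Spred1, Dusp4, Spry1 and Spry2. The first 6 places were the same in every library, and 2 of the 4 libraries had the whole order of the means. The direction of each step was set by sorting these same libraries, so the steps are a description and no test. Neighbours were said to differ beyond their spread where the log2 ratio had 1 sign in 4 of 4 libraries and a mean above its SD. All steps met this rule except 2. Spred1 and Dusp4 had a log2 ratio of 0.48 ± 0.58, and Dusp4 and Spry1 one of 0.41 ± 0.94, each with 3 of 4 libraries in the direction of the means. In replicate 3 Dusp4 stood above Spred1, and in replicate 4 Spry1 stood above Dusp4.

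Of the 10 members, 9 reached 1 TPM in all 4 libraries, as did 45.7% of the 21764 protein-coding genes and 23.1% of all 50600 genes. The median of the mean levels of all 10 members, Spry2 included, was 30.02 TPM. It stood beside 33.3 TPM for protein-coding genes that reached 1 TPM in all libraries, a filter not applied to the members. The median member was thus near the typical expressed gene.

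Variation between libraries was tested over all genes with edgeR, as the residual deviance of a quasi-likelihood fit with a common mean, set against the spread usual for genes of that abundance. Of 12554 tested genes, 1.13% were called variable at a Benjamini-Hochberg adjusted p of 0.05, and of the 9 members tested, 0 were called. Spry2 did not pass the count filter. At an unadjusted p under 0.05 there were 2 members, Dusp4 and Dusp5, where 5.23% of all tested genes passed. The dispersion trend of DESeq2 gave 0 and 2 members, beside 0.948% and 4.59% of genes. The highest library exceeded the lowest by a median of 1.18-fold over the 9 members and 1.18-fold over all tested genes.

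**Figure D2:**
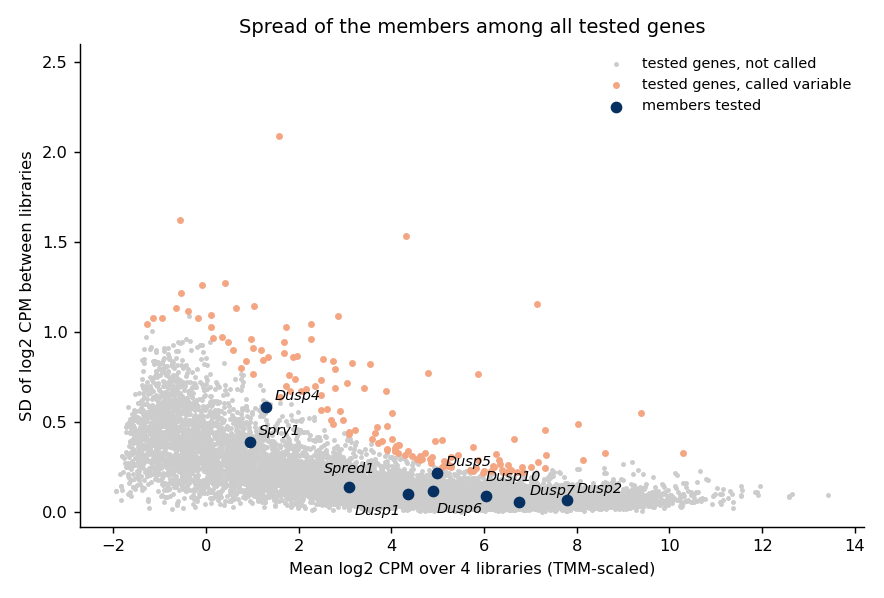
Standard deviation of log2 CPM (counts scaled to a common library size) between the 4 libraries against mean log2 CPM, for all 12554 tested genes; genes called variable are orange and the 9 tested members dark blue. Dusp4 and Dusp5, the 2 members with an unadjusted p under 0.05, lie just under the called genes of their abundance. Spry1 has a larger SD than Dusp5 at a lower mean level, and the remaining members lie below both.

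Dusp4 had the largest range of the tested members, with the highest library 2.68-fold above the lowest (edgeR p 0.00722, adjusted p 0.334). Its exact 95% Poisson intervals were 4.30 to 6.47 TPM in replicate 3 and 1.58 to 2.39 TPM in replicate 4, so those libraries differed by more than counting error. Without replicate 3 its unadjusted edgeR p was 0.334. Il2ra, the interleukin-2 receptor alpha chain, which marks activated and regulatory T cells, also had its highest library in replicate 3 (9.13 TPM) and its lowest in replicate 4 (3.11 TPM). It was called variable (edgeR adjusted p 1.19e-07), the 1 called of the 8 regulatory T cell markers. Of the others, Foxp3, Ikzf2 and Lrrc32 had the same highest and lowest libraries, while Ctla4, Ikzf4, Tnfrsf18 and Nrp1 did not. The summed B cell markers were lowest in replicate 4 too, but highest in replicate 1 (37.4 TPM, against 27.4 TPM in replicate 3). In bulk RNA, fewer cells of a type and less RNA per cell cannot be told apart, and the part of either in the range of Dusp4 was not tested. Spry1 ran the other way, with replicate 3 lowest and replicate 4 highest, a 1.92-fold range (edgeR p 0.255, adjusted p 1.00).

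Dusp5 had a range of 1.35-fold (edgeR p 0.00955, adjusted p 0.402). Of 11 genes known to respond to cell handling, 6 were highest in replicate 3 too and 3 were lowest there, while 21.5% of all tested genes were highest in that library. The 3 lowest were Btg2 (335 TPM, against 364 to 372 in the others), Hspa1a and Hspa1b. Fos lay at 30.3, 32.1, 35.4 and 34.4 TPM, Egr1 at 68.3, 70.9, 84.1 and 73.0 TPM and Nr4a1 at 79.7, 84.0, 106 and 88.9 TPM in replicates 1 to 4. These 3 of the 11 were named after their values were seen, and they had the library order of Dusp1 and Dusp5, replicate 3 first, then 4, 2 and 1. Jun, Junb, Ier2, Zfp36, Btg2, Atf3 and both heat shock genes had other orders, and 3.70% of all tested genes had this one. The highest library stood above the lowest by 0.22 log2 units for Dusp1 and 0.43 for Dusp5. Neither Dusp1, Dusp5, Fos, Egr1 nor Nr4a1 was called variable, and the part of cell handling in their order was not tested. Of the handling genes, 2 of 10 tested were called, Hspa1a and Hspa1b. Hspa1b lay at 5.08 TPM in replicate 3 and 37.0 to 45.6 TPM in the other libraries (edgeR adjusted p 3.60e-55). The other members, Dusp1, Dusp2, Dusp6, Dusp7, Dusp10 and Spred1, had ranges from 1.10-fold (Dusp7 and Dusp2) to 1.24-fold (Spred1), at unadjusted p values of 0.343 to 0.766. A p in that range does not show that their levels were equal.

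**Figure D3:**
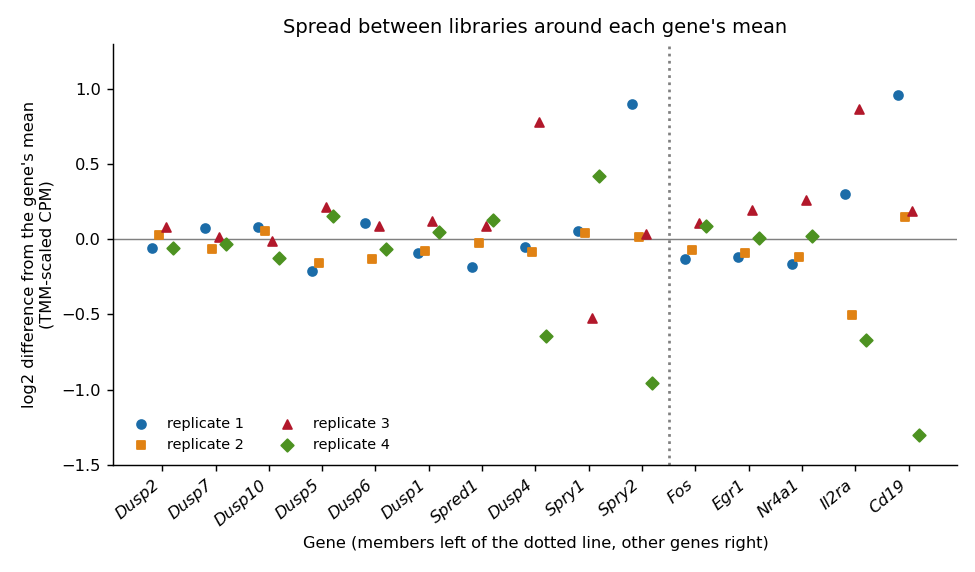
Difference of each library from the gene's own mean (log2, TMM-scaled CPM) for the 10 members and, right of the dotted line, 5 other genes. Replicate 3 is high and replicate 4 low for Dusp4 and Il2ra. For Dusp1, Dusp5, Spred1, Fos, Egr1 and Nr4a1, replicates 3 and 4 lie above replicates 1 and 2. Fos, Egr1 and Nr4a1 were named after their values were seen. The other genes known to respond to cell handling are not plotted, and none had the full library order of Dusp1 and Dusp5.

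The rest of the pathway was then read for the setting in which these brakes act, from 8 lists with 77 symbols, 76 of which were measured. Of these genes, 57 reached 1 TPM in all libraries (75.0%), and of 60 tested for variation 0 were called and 3 passed an unadjusted p of 0.05, among them Spred3 and Egr2. The 8 genes of the ERK cascade list were all detected, at a median of 85.2 TPM. Araf, at 104 ± 2.35 TPM, was among the 3 highest, and the scaffold Ksr1 (20.2 ± 1.57 TPM) and Braf (13.5 ± 0.912 TPM) were lowest.

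Activators of Ras had all 11 genes detected and a median of 58.4 TPM. Lat (1306 ± 77.2 TPM) and the T cell Ras exchange factor Rasgrp1 (317 ± 16.9 TPM) were highest, with Rasgrp2 (222 ± 18.1 TPM) next, and Sos2 (15.3 ± 1.06 TPM) and Rasgrp4 (4.19 ± 0.671 TPM) lowest. Other brakes on Ras had 9 of 11 genes detected and a median of 35.5 TPM. Rasal3, a GTPase-activating protein that switches Ras off, lay at 1091 ± 81.2 TPM and Rasa3, of the same function, at 482 ± 50.04 TPM, both above Dusp2. The adaptor Dok2 followed at 118 ± 10.7 TPM, while Dab2ip (0.0961 ± 0.0579 TPM) was lowest.

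Other phosphatases of MAP kinases had 4 of 6 genes detected. Ptpn7, a tyrosine phosphatase of blood cells that acts on ERK and p38, lay at 126 ± 6.58 TPM, close to the protein phosphatase 2A subunit Ppp2cb (126 ± 7.58 TPM) and above Ppm1a (83.8 ± 5.42 TPM). Its relative Ptprr had no count in any library, which allows up to 0.0758 TPM (the level of 3 counts), and Ptpn5 had 1 count in all. The remaining Dusp genes had 7 of 13 detected, with a median level of 1.37 TPM. Highest were Dusp11 (138 ± 5.69 TPM), which acts on RNA rather than on MAP kinases, Dusp12 (24.2 ± 2.36 TPM) and Dusp28 (19.5 ± 1.60 TPM). Dusp18 had 1 count in all and Dusp26 none, which allows up to 0.195 TPM.

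The JNK and p38 cascade had 9 of 11 genes detected and a median of 31.2 TPM. Mapk14, the main p38 kinase, led with 192 ± 5.95 TPM, followed by Mapk11 (113 ± 4.29 TPM) and the JNK activator Map2k7 (88.2 ± 2.25 TPM), while Mapk13 had 2 counts in all and Mapk10 none, which allows up to 0.0404 TPM. Genes that respond to ERK had 8 of 13 detected and a median of 6.48 TPM. Ier2 (286 ± 17.5 TPM), Myc (135 ± 10.1 TPM) and Egr1 (74.1 ± 6.94 TPM) were highest, and Etv4 (0.108 ± 0.115 TPM) and Fosl1 (1 count in all) lowest. The list was thus mixed, with Etv5 (1.63 to 3.15 TPM) detected beside its relative Etv4, and with the early-response genes Fosb and Ier3 below 1 TPM in each library.

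**Figure D4:**
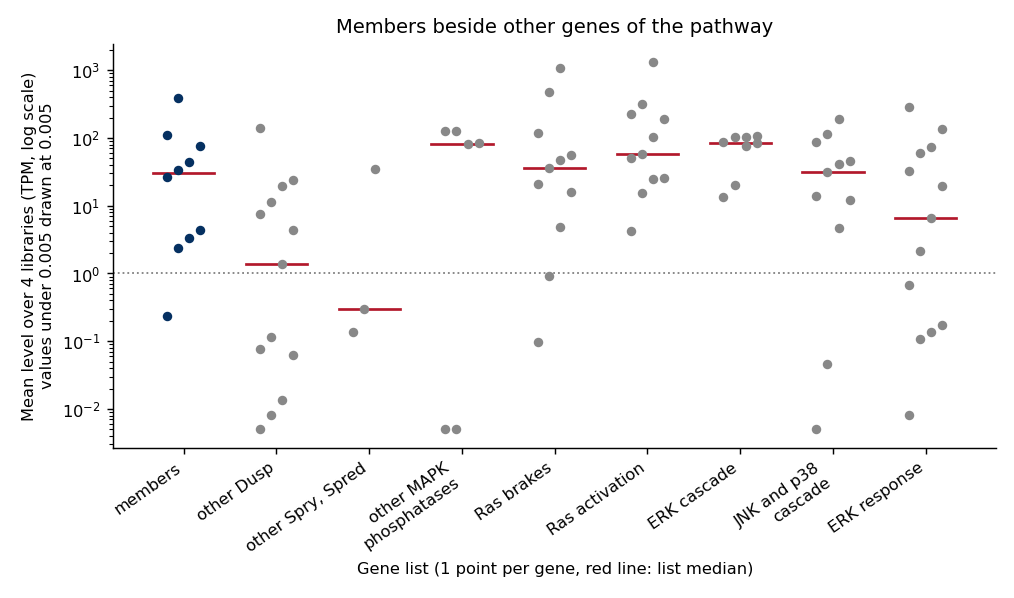
Mean level over 4 libraries (TPM, log axis) of the 10 members (dark blue) and of the genes of the 8 pathway lists (grey), 1 point per gene, with red lines at list medians and a dotted line at 1 TPM. Dusp2 is exceeded among the plotted genes by Lat, Rasal3 and Rasa3, and the median of the other Dusp genes lies at 1.37 TPM, below the members' 30.02 TPM.

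For 8 of the 10 members no 50-base sequence shared with another gene was found, while Dusp5 and Spry1 each share some with a gene on the opposite strand. In the gene models of the files, 0% of each member's exon bases were shared with a second gene in the same orientation. Of the 50-base words of the members' transcripts, 0 occurred in transcripts of other genes for 8 members. For Dusp5, 20.5% of words also occurred in AC137853.2, and for Spry1 21.8% in Gm42922, both on the opposite strand in GENCODE M21. The counting was run with a strand setting, and how many antisense fragments entered the Dusp5 and Spry1 counts was not tested. On build mm10, the plus-strand phosphatases are Dusp2 (ENSMUSG00000027368.6, chr2:127336159-127338376), Dusp4 (ENSMUSG00000031530.6, chr8:34807297-34819894), Dusp5 (ENSMUSG00000034765.6, chr19:53529109-53542431), Dusp6 (ENSMUSG00000019960.8, chr10:99263231-99267489), Dusp7 (ENSMUSG00000053716.9, chr9:106368632-106375724) and Dusp10 (ENSMUSG00000039384.8, chr1:184013302-184075636). Dusp1 (ENSMUSG00000024190.6, chr17:26505590-26508519) lies on the minus strand, as does Spry2 (ENSMUSG00000022114.4, chr14:105891949-105896819). Spry1 (ENSMUSG00000037211.12, chr3:37639947-37644598) and Spred1 (ENSMUSG00000027351.14, chr2:117121374-117182279) lie on the plus strand. Each count is the sum over all exons, UTRs included. All 10 members are protein-coding genes.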

How the data were processed

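RNA-seq was made from 4 libraries of 1 group. The files hold unnormalised counts of fragments for every gene, as deposited by the authors. The counter, per the file headers, was featureCounts 1.4.6-p4, run on mm10 with the exons of GENCODE M13, with strand setting 2 and both ends aligned, and without options to count fragments with several alignments. TPM and CPM were computed here from those counts and the exon lengths in the files. Symbols came from GENCODE M21 for 99.6% of 50600 genes. Of 152 list symbols, 151 matched, and Spry3 did not.

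Variation was tested with edgeR 4.0.16 under R 4.3.3. Genes passed filterByExpr, libraries were scaled by TMM, and the deviance left by an intercept-only glmQLFit was read on 3 degrees of freedom with dispersions from the trend, with Benjamini-Hochberg adjustment over all tested genes. DESeq2 1.42.0 gave an alternative. On data simulated for this comparison over 12554 genes, 82% of genes changed 2-fold in 1 library were recovered and 20% of those changed 1.5-fold, with 3 false calls. The simulated counts followed the dispersion trend that the test assumes, and the changes were put in replicate 3. Such data cannot show how the test behaves for genes that depart from the trend. Ratios used log2(TPM+0.1) within a library and an exact sign-flip test. Plots and other values used Python 3.11.15 and scipy 1.17.1. Depth was 23000465 to 62090744 counts. Named genes are the members, the 3 highest and 2 lowest of each pathway list, and variable members' nearest genes, of which there were none because no member was called. Some genes that this rule names are not reported here. Further genes were picked for naming with their values in view. The members and lists were chosen with earlier results of these data known.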

Additional observations from a re-analysis of the deposited data

Results flagged for a closer look

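Among 45 members and named pathway genes, a gap test for 1 stray library of 4 (Dixon's critical value 0.83) marked 5 genes and no member. Chance marks about 1 in 20 where levels vary smoothly, a rate that does not hold for genes with almost no counts. The 45 include such genes, because the 2 lowest of each pathway list are among them. Dusp11 lay at 147 TPM in replicate 2, above 134 to 136 TPM in the others. Its range was only 1.06-fold after TMM scaling, and the deviance test did not call it (edgeR p 0.945). The other 4 rest on 1 or 2 counts in a single library: Dusp18 (0.0323 TPM, replicate 3), Fosl1 (0.0327 TPM, replicate 4), Mapk13 (0.182 TPM, replicate 1) and Ptpn5 (0.00963 TPM, replicate 4). A gene with counts in a single library is always marked by this test, so these 4 marks carry no information.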

How the results depend on the processing

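No paired analysis was possible because there is 1 group. The count of members called variable was 0 under every alternative run, including the removal of each replicate, and the smallest adjusted p over the members was 0.192 (Dusp4 without replicate 1). The unadjusted p ran from 0.00198 to 0.334 for Dusp4 and from 0.00677 to 0.0461 for Dusp5. Over all genes, 142 calls became 88 without the count filter, 74 at an adjusted p of 0.01 and 60 to 85 with 1 replicate left out, where fewer libraries enter. All 49 alternatives for the 7 ratios kept the direction of the mean, but most of them could not have changed it. Each ratio had 1 sign in all 4 libraries, so neither leaving out a replicate nor changing the TPM added could reverse it. Only the change to CPM could, and it reversed none of the 7. The size moved by over 1.5 times in 3 of the 49. Dusp10 to Dusp16 went from 51.7-fold to 32.2-fold with 1 TPM added and to a log2 ratio of 4.39 on CPM, and Spry1 to Spry2 from 7.57-fold to 2.71-fold with 1 TPM added. Dusp5 to Dusp6 fell to a log2 ratio of 0.08 on CPM, with 3 of 4 libraries in its direction. Of the members, 9 reached 0.5 TPM and 6 reached 5 TPM in all libraries. Depth limits Spry2 most, on 3 to 8 counts.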
